A study of Mus musculus with 12 samples.

Results

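Bone marrow-derived macrophages labelled as lacking Nlrc3 were compared with wild-type macrophages after culture in RPMI medium alone, over all genes of the deposited tables. The comparison took 6 of the 12 libraries of the study, chosen by their labels: 3 libraries labelled knockout (KO medium) and 3 labelled wild type (WT medium). The KO mice carried LysM-Cre and loxP-flanked Nlrc3 alleles, so that Cre, driven by a promoter active in myeloid cells, can delete the gene there. The WT mice carried the same floxed alleles without Cre, and both groups were thus floxed. Macrophages were grown from the marrow of femurs and tibias with macrophage colony-stimulating factor (M-CSF). Another group, the 3 WT libraries given lipopolysaccharide (LPS) for 12 h (WT LPS), is set beside them where stated. The labels give neither the age of the mice nor whether replicates were separate animals, so the p-values speak only of how far these libraries scatter, which may in part be technical.

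Nlrc3 belongs to the NOD-like receptors, cytosolic proteins that sense microbial products or temper the signals of other sensors, and it is described in mouse macrophages and T cells as a brake on NF-kappaB, STING and PI3K-mTOR signalling. Macrophages resting in M-CSF make little of the cytokines and antimicrobial enzymes for which they are known. Bacterial LPS, read through Tlr4, switches on NF-kappaB target genes and, through interferon beta and STAT factors, a second wave of interferon-stimulated genes, while glucose use rises and the citric acid cycle is remodelled.

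Levels are given as CPM, the share of a library's counts scaled by trimmed-mean (TMM) factors, in the order of libraries 1, 2 and 3 of a group. Totals ran from 14115083 to 18075354 counts in KO medium and from 13082947 to 19515275 in WT medium. The libraries stood apart in another measure: the share of counts falling in genes longer than 4 kb was 37.3%, 34.5% and 46.02% in KO medium and 50.9%, 37.3% and 51.3% in WT medium. KO medium 1 and 2 and WT medium 2 thus had low shares, and KO medium 3 and WT medium 1 and 3 high ones. Xist, transcribed from the inactive X chromosome, was below 1 CPM in all 3 KO medium libraries and in WT medium 2 but at 587 and 634 CPM before scaling in WT medium 1 and 3. The sum of 4 Y-linked genes was 72.0, 75.2 and 102.5 CPM before scaling in KO medium, against 0.051, 82.9 and 0.0 CPM in WT medium. By these transcripts all KO medium libraries and WT medium 2 were male and WT medium 1 and 3 female. Sex thus differed in part along with the labelled genotype. Counts of mitochondrially encoded genes were 0.654% to 0.94% of the total in KO medium and 1.28% to 1.46% in WT medium, and 17243 to 18348 genes had a count in KO medium, against 18824 to 19249 in WT medium. Neither measure overlapped between the groups, and their part in the results was not tested. Comparisons within the sets of high or low long-gene share set KO medium 3 alone against WT medium 1 and 3, or KO medium 1 and 2 against WT medium 2 alone. Their spread comes from all 12 libraries, so the lone library is assumed to vary like the others.

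Nlrc3 itself (ENSMUSG00000049871, chromosome 16, 3945007 to 3976632 of mm10, minus strand) was low in the libraries labelled KO. It stood at 1.41, 1.21 and 1.11 CPM in KO medium, against 7.30, 12.3 and 7.10 CPM in WT medium. The groups did not overlap, and the log2 fold change was -2.83 ± 0.56 (SE; adjusted p = 0.00371 in the quasi-likelihood test of edgeR, Benjamini-Hochberg adjustment over all genes). Leaving out each of the 6 libraries in turn kept the call, with adjusted p-values up to 0.0196 in the same edgeR test. The log2 fold was -2.69 for KO medium 3 alone against WT medium 1 and 3 (edgeR adjusted p = 0.086) and -3.22 for KO medium 1 and 2 against WT medium 2 alone (edgeR adjusted p = 0.0379). WT LPS libraries had 1.04, 4.32 and 1.71 CPM, and the difference of KO medium from WT LPS did not pass (-0.94 ± 0.55 on the log2 scale, edgeR adjusted p = 0.95). The targeted gene went against the labels in the fourth group: the libraries labelled KO and given LPS (KO LPS) had 12.9, 6.68 and 4.91 CPM, against 1.04, 4.32 and 1.71 CPM in WT LPS. A count over the whole gene also takes reads from exons that Cre leaves in place. For these reasons KO medium here means the libraries labelled so, and which cells they hold cannot be told apart from their labels.

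All 10 macrophage markers were counted in every library, and the summed level of the list was 13637 to 19697 CPM in KO medium and 24226 to 32265 CPM in WT medium. Lyz2, the lysozyme M gene of myeloid cells after which LysM-Cre is named, made up most of that sum. It stood at 11036, 7834 and 5442 CPM in KO medium, against 17843, 27452 and 18746 CPM in WT medium. Whether the Cre allele bears on the level of Lyz2, and so on the sum, was not tested. Csf1r, the M-CSF receptor, stood at 1257, 1079.6 and 1326 CPM in KO medium, against 2622, 1237 and 2597 CPM in WT medium (log2 fold -0.82 ± 0.36, edgeR adjusted p = 0.116), and Adgre1, the F4/80 antigen, at 505, 511 and 893 CPM in KO medium, against 1139, 353 and 1119 CPM in WT medium (log2 fold -0.45 ± 0.57, edgeR adjusted p = 0.595). Both genes overlapped between the groups, with WT medium 2 at the level of the KO medium libraries or below it. Of the 10 markers 3 were called higher, Fcgr1, Spi1 and Cd14, with log2 folds of 2.57 ± 0.31, 1.63 ± 0.29 and 1.49 ± 0.46, and Lyz2 was called lower.

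Expression differed broadly between the groups. Of 13773 genes tested, 3620 were called at an adjusted p under 0.05, which is 26.3% of them. Of these 1932 were higher (14.0%) and 1688 lower (12.3%) in KO medium. The libraries of the groups did not overlap for 42.6% of all genes tested. A log2 fold of at least 3 was reached by 532 of the rises and one of at most -3 by 198 of the falls, so large changes were more often rises. The split of directions depended on scaling: with library totals in place of TMM factors, the median log2 fold of all genes was -0.85 in place of -0.02, and 16.1% of calls were higher in place of 53.4%. Changes below are relative to the TMM median. The count of calls fell to 2295 without KO medium 1, 2221 without WT medium 1 and 2235 without WT medium 3, and came to 1615 within the high-share and 975 within the low-share libraries. These subsets hold 3 to 5 of the 6 libraries, with a single library in 1 group for each share. A fit with a term for sex, as read from Xist, called 3322 genes and one with a term for the long-gene share 4340. The counts of each gene list below are read against the 26.3% called over all genes. The lists and their members were chosen with earlier results of these data known. Their counts, and the motif shares of the same lists, describe the lists and are no independent test.

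**Figure D1:**
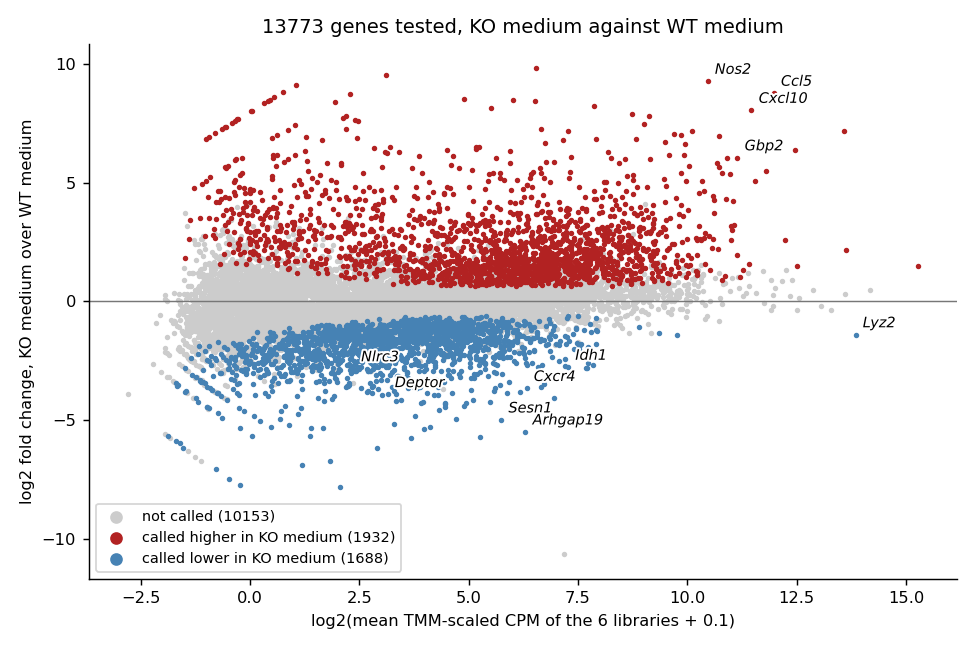
Log2 fold change of KO medium over WT medium (y axis) against mean level over the 6 libraries (x axis, log2 of TMM-scaled CPM plus 0.1), 1 point a gene. The 1932 genes called higher reach log2 folds above 9, as for Nos2, and the 1688 called lower seldom pass -5.

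The 15 largest rises among genes at 5 CPM or more held chemokines, cytokines and the enzyme of nitric oxide synthesis. Nos2, the inducible nitric oxide synthase, stood at 3858, 1633 and 2965 CPM in KO medium, against 4.39, 3.54 and 5.72 CPM in WT medium. Ccl5, a chemokine for T cells and monocytes, stood at 8679, 10644 and 4790.0 CPM in KO medium, against 22.1, 21.6 and 11.6 CPM in WT medium. Cxcl10, an interferon-inducible chemokine for activated T cells, stood at 5024, 5217 and 6680.0 CPM in KO medium, against 13.8, 35.7 and 14.5 CPM in WT medium. No WT medium library passed 36 CPM for any of the 3 genes and no KO medium library was under 1600, with log2 folds of 9.27 ± 0.95, 8.77 ± 0.58 and 8.05 ± 0.70 in that order (SE; edgeR adjusted p = 8.12e-05, 1.25e-05 and 3.72e-05). Il27, a subunit of interleukin 27, reached 539.9, 437 and 415 CPM in KO medium and at most 2.15 CPM in WT medium. Il19, a cytokine of the Il10 family, reached 204, 92.3 and 87.9 CPM in KO medium and at most 0.901 CPM in WT medium. Cd69, an early activation antigen of leukocytes, reached 832, 607 and 1124 CPM in KO medium and at most 4.78 CPM in WT medium. The endothelial lipase gene Lipg, the endothelin gene Edn1 and the transcription factor gene Lhx2 belonged to the same 15, with log2 folds of 8.43 ± 0.60, 8.13 ± 1.11 and 8.50 ± 0.60. Shisa3, Il23r, Il33, Fam3b and Saa1 completed them together with Il1a. These 5 without Il1a had at most 2 counts in any WT medium library, so their levels are given without a fold. Their highest levels in KO medium were 24.4, 12.2, 9.28, 12.8 and 12.3 CPM in that order.

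**Figure D2:**
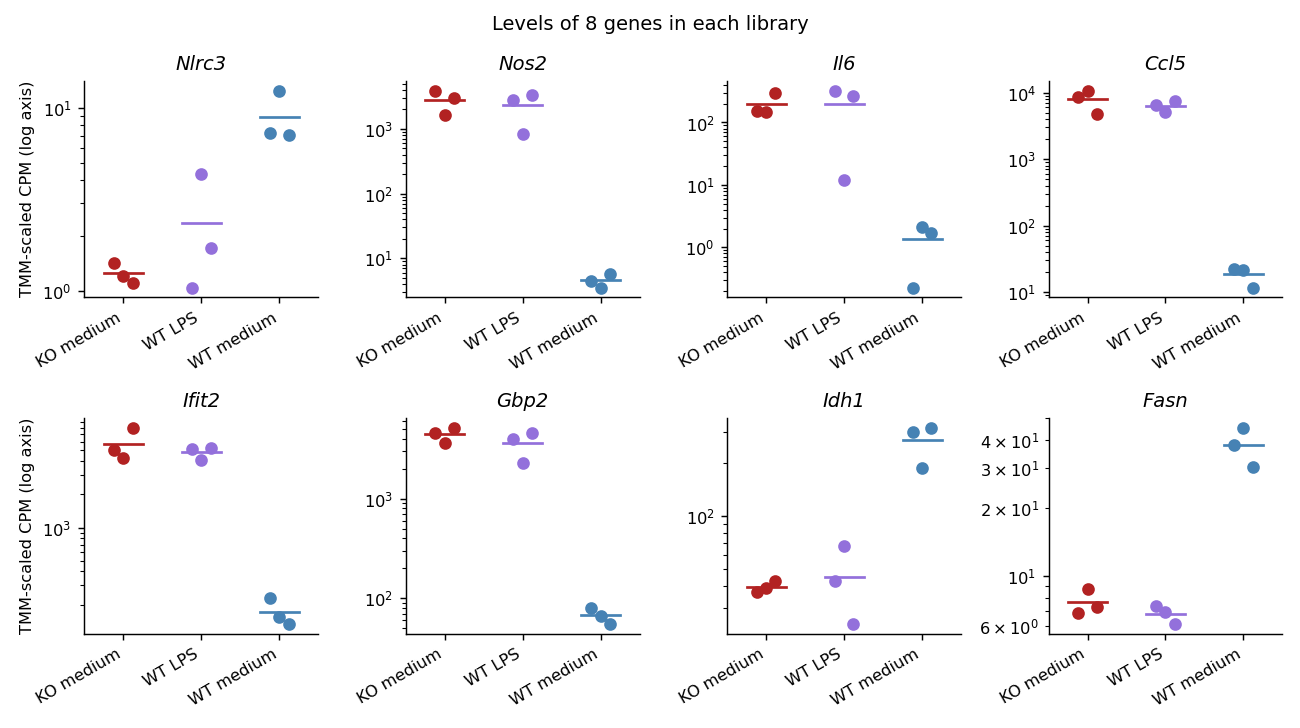
TMM-scaled CPM of 8 genes in each library (points, log axis), with the mean of each group of 3 as a bar, for KO medium, WT LPS and WT medium. KO medium and WT medium do not overlap in any panel, whereas KO medium lies within or near the range of WT LPS.

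The 15 largest falls were of genes with low levels in KO medium and up to 126 CPM in WT medium. Sesn1, a p53 target that restrains mTORC1, stood at 2.99, 2.82 and 4.002 CPM in KO medium, against 118, 66.7 and 126 CPM in WT medium (log2 fold -4.98 ± 0.89, edgeR adjusted p = 0.00218). Tmem273, a membrane protein of little-known function, stood at 0.471, 0.202 and 0.681 CPM in KO medium, against 27.1, 25.7 and 21.6 CPM in WT medium, with close values in the 3 WT medium libraries. Lpin1, a phosphatidate phosphatase and co-regulator of lipid genes, stood at 0.786, 0.504 and 0.255 CPM in KO medium, against 25.4, 6.79 and 24.2 CPM in WT medium. St6gal1, which adds sialic acid to glycoproteins, stood at 1.81, 1.71 and 1.36 CPM in KO medium, against 59.9, 16.5 and 75.9 CPM in WT medium, and Amz1, a metallopeptidase, at 0.864, 1.21 and 0.681 CPM in KO medium, against 28.1, 34.9 and 15.4 CPM in WT medium. WT medium 2, of low long-gene share, was the lowest WT library for Lpin1 and St6gal1 and the highest for Amz1. That it lay above every KO medium library for each follows from the rule, which took only genes without overlap between the groups. Arhgap19, Ldlrad3, Zfp704, Etl4, Zdhhc14, Rnf144b, Mcoln3 and Stard9 had log2 folds between -5.72 and -4.41 in the same fit, and Lpar5 and Lrrc14b had -6.72 and -6.16. The call of Lpar5 ended without KO medium 1 (edgeR adjusted p = 0.0605) or KO medium 2 (0.0511). All exon bases of Lrrc14b overlap Ccdc127 on the opposite strand, so its counts are uncertain, since the counting strand is not given in the sources used here.

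Cytokine genes rose nearly throughout the list. Of 24 tested, 21 were called higher and 0 lower, with a median log2 fold of 4.29 against -0.02 over all genes tested. Il6, a pyrogenic cytokine, stood at 154, 149 and 299 CPM in KO medium, against 0.227, 2.15 and 1.67 CPM in WT medium. Tnf, the prototype inflammatory cytokine, stood at 909.8, 1282 and 928 CPM in KO medium, against 22.0, 70.1 and 18.1 CPM in WT medium. Il1b, the secreted interleukin 1, stood at 3016, 3785 and 3965 CPM in KO medium, against 197, 78.6 and 273 CPM in WT medium. These 3 genes rose by 7.25 ± 1.15, 4.83 ± 0.92 and 4.30 ± 0.69 (log2 fold, SE; edgeR adjusted p = 0.00111, 0.00311 and 0.00115). Il12b, the subunit that interleukins 12 and 23 share, reached 37.3, 29.3 and 66.8 CPM in KO medium against at most 0.757 CPM in WT medium. Cytokines that restrain inflammation moved the same way: Il10 stood at 257, 139.5 and 329.9 CPM in KO medium, against 4.88, 3.05 and 4.51 CPM in WT medium. Il12b and Il10 had log2 folds of 5.86 to 6.36 (edgeR adjusted p-values up to 0.000952) and no overlap between the groups. Ifnb1, the interferon that starts the second wave in LPS-treated macrophages, was scarce in both groups, at 2.44, 2.22 and 2.81 CPM in KO medium, against 0.0757, 0.416 and 0.0417 CPM in WT medium (log2 fold 3.93 ± 0.86, edgeR adjusted p = 0.00649). Il15 and Il18, which support natural killer cells, rose by 3.83 ± 0.32 and 3.58 ± 0.36 on the log2 scale. The rises numbered 18 with KO medium 3 alone against WT medium 1 and 3, and 8 with KO medium 1 and 2 against WT medium 2 alone.

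Chemokine genes followed. Of 12 CC chemokines tested 8 rose and of 9 CXC chemokines 7 rose, with none called lower. The CC rises numbered 5 without KO medium 1, WT medium 1 or WT medium 3. Ccl3 and Ccl4, which draw monocytes and T cells, rose by 5.06 ± 0.78 and 6.15 ± 0.87 on the log2 scale. Cxcl9 and Cxcl11 share a receptor with Cxcl10. Cxcl9 stood at 349.9, 203 and 364 CPM in KO medium, against 4.50, 0.762 and 1.002 CPM in WT medium and Cxcl11 at 183, 96.5 and 275 CPM in KO medium, against 0.0757, 0.485 and 0.125 CPM in WT medium. Cxcl11 is annotated as a polymorphic pseudogene of the mouse reference and was left out of the 15 largest rises for that, and 41.7% of its exon bases overlap another pseudogene on the opposite strand. No WT medium library reached the lowest KO medium value for Cxcl9 and Cxcl11, and the log2 folds were 7.16 to 9.81 (edgeR adjusted p-values up to 0.000148). Of 12 genes tested in the chemokine receptor list, 4 rose and 2 fell (4 and 4 with library totals). The formyl peptide receptor genes Fpr1 and Fpr2 rose by 4.41 ± 0.40 and 4.96 ± 0.40 on the log2 scale. Cxcr4, a chemokine receptor that holds cells in the marrow, fell: it stood at 5.50, 9.68 and 20.1 CPM in KO medium, against 201, 49.9 and 194 CPM in WT medium (log2 fold -3.66 ± 0.60, edgeR adjusted p = 0.00137).

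NF-kappaB genes rose as a group, inhibitors included. Of 20 tested, 14 rose and 0 fell (12 and 1 with library totals), with a median log2 fold of 2.22. Nfkbia, which encodes the inhibitor IkBa and is itself a target of NF-kappaB, stood at 865, 804 and 883 CPM in KO medium, against 67.4, 72.1 and 63.9 CPM in WT medium (log2 fold 3.65 ± 0.48, edgeR adjusted p = 0.000356). Tnip1, Nfkbie and Nfkbib, further inhibitors, rose by 3.15 ± 0.47, 3.13 ± 0.45 and 2.99 ± 0.44 on the log2 scale. KO medium 3 alone against WT medium 1 and 3 gave 11 rises and 0 falls, and KO medium 1 and 2 against WT medium 2 alone gave 12 and 0. Among 21 genes of LPS sensing and Toll-like receptor signalling, 5 rose and 1 fell (2 and 7 with library totals). That is 28.6% called, against 26.3% of all genes tested. Myd88, the adaptor of most Toll-like receptors, stood at 521, 466 and 505 CPM in KO medium, against 75.2, 81.2 and 78.5 CPM in WT medium (log2 fold 2.67 ± 0.31, edgeR adjusted p = 0.000148), and Irak3, which curbs that pathway, rose by 2.30 ± 0.47. Tlr4, the LPS receptor, stood at 32.1, 26.6 and 45.6 CPM in KO medium, against 99.8, 48.2 and 88.0 CPM in WT medium (log2 fold -1.18 ± 0.43, edgeR adjusted p = 0.0609). Cd14, its co-receptor, was called higher (log2 fold 1.49 ± 0.46, edgeR adjusted p = 0.0316), a call that ended on leaving out any library but WT medium 2, with adjusted p-values of 0.0684 to 0.109 in the same edgeR test. The list held 3 rises without KO medium 1 or WT medium 3, and 0 falls without KO medium 1, WT medium 1 or WT medium 3 and 2 without WT medium 2. Of 11 other Toll-like receptors tested, 5 rose and 1 fell (2 and 2 with library totals); Tlr3, the receptor of double-stranded RNA, stood at 146, 92.4 and 289 CPM in KO medium, against 16.4, 8.46 and 16.2 CPM in WT medium and Tlr6, which senses diacylated lipopeptides, at 66.2, 64.1 and 67.6 CPM in KO medium, against 23.4, 15.7 and 21.2 CPM in WT medium. For Tlr3 and Tlr6 the log2 folds were 1.71 to 3.68 (edgeR adjusted p-values up to 0.000697), with KO medium higher throughout. The test called 2 rises without KO medium 1 and 3 without KO medium 2, KO medium 3, WT medium 2 or WT medium 3, and 0 falls without KO medium 1, KO medium 2, WT medium 1 or WT medium 3.

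Within the family of Nlrc3 itself, the NOD-like receptors moved in both directions. Of 15 tested, 5 rose and 3 fell (4 and 5 with library totals), with a median log2 fold of 0.09. Nod2, the sensor of muramyl dipeptide, stood at 57.1, 52.1 and 85.7 CPM in KO medium, against 8.63, 4.78 and 7.39 CPM in WT medium. Nlrp3, which nucleates an inflammasome, stood at 251, 173 and 554 CPM in KO medium, against 47.3, 24.0 and 54.6 CPM in WT medium. Every KO medium library lay above every WT medium library for Nod2 and Nlrp3, with log2 folds of 2.96 to 3.22 and edgeR adjusted p-values of at most 0.0038. Nlrc5, the transactivator of MHC class I genes, rose by 2.52 ± 0.43 and Nod1 by 2.52 ± 0.58 on the log2 scale. The genes that fell were Nlrc3, Nlrp10 (log2 fold -2.80 ± 0.52) and Nlrp1b (-3.90 ± 0.98), the last of which lost its call without KO medium 1 (edgeR adjusted p = 0.0585) or KO medium 2 (0.0502). Among 14 genes of inflammasomes, caspases and pore formers, 9 rose and 1 fell. Casp4, the mouse caspase 11 that binds intracellular LPS, stood at 465, 506 and 507 CPM in KO medium, against 30.3, 47.5 and 30.5 CPM in WT medium, and Gsdmd, the pore former it cleaves, at 447, 370.3 and 355 CPM in KO medium, against 100.4, 79.2 and 99.7 CPM in WT medium. Casp4 and Gsdmd had log2 folds of 2.07 to 3.77 (edgeR adjusted p-values up to 0.000528) and no overlap between the groups. Aim2, a sensor of cytosolic DNA, rose by 1.85 ± 0.30. When 1 library was left out, the list held 0 falls without KO medium 1, KO medium 2, KO medium 3 or WT medium 2. Of 8 genes tested of nucleic acid sensing and STING, 4 rose and 2 fell (1 and 2 with library totals). Mb21d1, which encodes the DNA sensor cGAS, stood at 25.8, 24.9 and 40.2 CPM in KO medium, against 13.5, 14.7 and 15.2 CPM in WT medium (log2 fold 1.07 ± 0.25, edgeR adjusted p = 0.00937). Enpp1, which degrades the messenger cGAMP, stood at 9.90, 6.15 and 9.03 CPM in KO medium, against 22.9, 17.3 and 16.9 CPM in WT medium (log2 fold -1.19 ± 0.26, edgeR adjusted p = 0.00625). Fits with 1 library fewer called 1 fall without KO medium 1, KO medium 2, KO medium 3, WT medium 1 or WT medium 3.

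Interferon-stimulated genes rose without exception in the list. All 32 tested were called higher, with a median log2 fold of 3.40, and each of them kept its call on leaving out any 1 library except Rnf213, which lost it without KO medium 3 (edgeR adjusted p = 0.0787) or WT medium 3 (0.0704). Rnf213, a ubiquitin ligase, is named here after its values were seen. Ifit2, which binds viral RNA, stood at 4999, 4237 and 8066 CPM in KO medium, against 232, 155 and 133 CPM in WT medium. Oasl1, an oligoadenylate synthase relative, stood at 1811, 1548 and 2093 CPM in KO medium, against 49.97, 55.3 and 24.9 CPM in WT medium. Isg20, an exonuclease, stood at 961, 725 and 568 CPM in KO medium, against 10.2, 16.7 and 8.72 CPM in WT medium, and Cmpk2, a mitochondrial nucleotide kinase, at 3810.2, 2033 and 5528 CPM in KO medium, against 51.6, 82.6 and 37.9 CPM in WT medium. The log2 folds were 5.06 ± 0.38, 5.39 ± 0.44, 5.99 ± 0.42 and 6.05 ± 0.48 in that order (SE; edgeR adjusted p-values at or under 2.18e-05). WT medium 2 was the highest WT library for Oasl1, Isg20 and Cmpk2 and lay far below KO medium for each. KO medium 3 alone against WT medium 1 and 3 gave 31 rises and 0 falls, and KO medium 1 and 2 against WT medium 2 alone gave 29 and 0. Among guanylate-binding proteins and immunity-related GTPases, which attack vacuoles that hold microbes, 13 of 14 rose, with a median log2 fold of 4.35. Gbp2 stood at 4601, 3602 and 5181 CPM in KO medium, against 80.3, 66.9 and 54.6 CPM in WT medium, Gbp3 at 2099.6, 1972 and 2080.1 CPM in KO medium, against 39.6, 52.4 and 26.4 CPM in WT medium and Gbp5 at 1535, 818 and 2605 CPM in KO medium, against 16.8, 8.39 and 12.7 CPM in WT medium. No WT medium library reached the lowest KO medium value for Gbp2, Gbp3 and Gbp5, and the log2 folds were 5.70 to 7.03 (edgeR adjusted p-values up to 5.95e-05). These genes lie in clusters of close relatives, and how reads shared between relatives were counted is not given in the sources used here.

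Promoter windows of these genes were read from RefSeq (GRCm38.p6, 250 bases before to 50 after a start), which had a window for 25 of the 32 interferon-stimulated genes and 9 of the 14 GTPases tested. The core of the interferon-stimulated response element, searched as GAAA, any 2 bases and GAAA again on both strands, was found in windows of 14 and 9 of these genes, that is 56.0% and 100%. Counted per gene in the same way, it was found for 4.13% of the genes tested that had a window, and it lay in 3.44% of all 32851 windows. It was found in windows of 9.55% of the genes called higher and 2.46% of those called lower, and also for 6 of 29 ribosomal protein genes (20.7%), none of which was called. An NF-kappaB motif, GGGA, any base and TTTCC on both strands, was found for 3 of 16 NF-kappaB genes with a window, 3 of 6 CXC chemokine genes, 2 of 18 cytokine genes and 0 of 7 CC chemokine genes. It was found for 0.552% of the genes tested that had a window and in 0.411% of all windows. A match is a description of letters and not a measured site. The windows below are shown because they carry these motifs in genes that rose in KO medium. Capitals mark the interferon motif or its reverse complement in the first 4, and the NF-kappaB motif or its reverse complement in the last pair. In the order printed they lie at chr3:142620413-142620712 (plus strand), chr3:142559794-142560093 (plus strand), chr16:10785487-10785786 (minus strand), chr5:92348840-92349139 (minus strand), chr5:30012864-30013163 (plus strand) and chr12:55492598-55492897 (minus strand).
Gbp2: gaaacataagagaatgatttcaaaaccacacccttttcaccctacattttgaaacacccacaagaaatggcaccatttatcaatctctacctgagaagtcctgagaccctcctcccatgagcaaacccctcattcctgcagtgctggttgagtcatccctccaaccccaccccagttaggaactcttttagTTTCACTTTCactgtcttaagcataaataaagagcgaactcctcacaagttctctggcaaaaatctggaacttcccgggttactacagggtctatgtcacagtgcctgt
Gbp3: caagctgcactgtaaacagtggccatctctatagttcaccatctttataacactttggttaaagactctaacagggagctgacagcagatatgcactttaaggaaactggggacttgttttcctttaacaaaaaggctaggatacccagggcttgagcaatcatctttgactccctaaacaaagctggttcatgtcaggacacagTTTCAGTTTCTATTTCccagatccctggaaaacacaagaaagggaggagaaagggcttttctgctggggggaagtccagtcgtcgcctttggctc
Socs1: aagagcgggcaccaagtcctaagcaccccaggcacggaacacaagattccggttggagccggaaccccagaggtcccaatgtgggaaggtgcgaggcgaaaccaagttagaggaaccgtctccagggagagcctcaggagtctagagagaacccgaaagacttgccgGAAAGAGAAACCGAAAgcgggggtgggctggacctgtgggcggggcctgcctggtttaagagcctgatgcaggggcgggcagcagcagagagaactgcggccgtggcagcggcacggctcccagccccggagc
Cxcl10: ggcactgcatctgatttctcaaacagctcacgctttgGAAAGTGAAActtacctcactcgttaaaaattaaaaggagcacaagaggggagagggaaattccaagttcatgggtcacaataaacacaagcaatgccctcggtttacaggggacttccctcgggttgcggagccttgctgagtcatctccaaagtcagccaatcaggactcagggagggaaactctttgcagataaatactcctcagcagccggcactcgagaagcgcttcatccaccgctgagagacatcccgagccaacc
Il6: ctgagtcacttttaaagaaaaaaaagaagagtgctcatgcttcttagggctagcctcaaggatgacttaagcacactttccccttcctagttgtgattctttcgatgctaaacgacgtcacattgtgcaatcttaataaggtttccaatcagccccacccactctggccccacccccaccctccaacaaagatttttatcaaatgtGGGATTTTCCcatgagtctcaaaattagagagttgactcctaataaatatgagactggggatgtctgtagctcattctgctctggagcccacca
Nfkbia: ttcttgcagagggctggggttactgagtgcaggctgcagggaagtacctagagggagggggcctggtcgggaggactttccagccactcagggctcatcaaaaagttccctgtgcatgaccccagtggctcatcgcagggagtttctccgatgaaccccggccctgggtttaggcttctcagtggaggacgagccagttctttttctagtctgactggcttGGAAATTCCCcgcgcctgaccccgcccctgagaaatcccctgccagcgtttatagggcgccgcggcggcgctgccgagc

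Signalling genes downstream of interferons and cytokines rose as well. Of 27 interferon regulatory factors, STAT, JAK and SOCS genes and receptors tested, 17 rose and 1 fell, with a median log2 fold of 1.49. The feedback inhibitors Socs1 and Socs3, of which Socs1 has 2 matches to the interferon motif in its window, had the largest folds of the list. Socs1 stood at 112, 106 and 71.6 CPM in KO medium, against 1.06, 2.495 and 0.918 CPM in WT medium and Socs3 at 1683, 1359.8 and 1509 CPM in KO medium, against 15.4, 20.2 and 28.3 CPM in WT medium. For Socs1, Socs3 and Irf7 the log2 folds were 3.70 to 6.15 (edgeR adjusted p-values up to 0.000195), with KO medium higher throughout. Irf7, which amplifies type I interferon, stood at 3182, 2549 and 2981 CPM in KO medium, against 303, 184 and 185 CPM in WT medium, and Jak2 rose by 3.89 ± 0.40. Ifngr1, a chain of the interferon gamma receptor, was the member that fell, at 63.6, 56.3 and 56.1 CPM in KO medium, against 183, 119 and 202 CPM in WT medium (log2 fold -1.52 ± 0.37, edgeR adjusted p = 0.0116). Among 26 AP-1 factors, early response genes and MAP kinase phosphatases, 14 rose and 2 fell. Batf2, an AP-1 family factor induced by interferon, rose by 5.01 ± 0.47 and the phosphatase Dusp1 by 3.07 ± 0.43, while another phosphatase, Dusp3, had a log2 fold of -1.85 ± 0.29. Leaving out 1 library gave 1 fall without KO medium 1, WT medium 1 or WT medium 2.

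Genes that present antigen on MHC class I rose, and those for class II did not pass the test. Of 16 class I loading and immunoproteasome genes 11 rose and none fell (10 and 2 with library totals), with a median log2 fold of 2.30. Tap1, a subunit of the peptide transporter, stood at 1011, 1067 and 952 CPM in KO medium, against 110.3, 87.4 and 60.9 CPM in WT medium, and Psme1, of the proteasome activator, at 693, 756 and 476 CPM in KO medium, against 119.9, 154 and 101 CPM in WT medium. Every KO medium library lay above every WT medium library for Tap1 and Psme1, with log2 folds of 2.36 to 3.55 and edgeR adjusted p-values of at most 0.000204. None of 11 class II genes was called, with a median log2 fold of 0.50; DESeq2 called 1 of them higher, as edgeR did without WT medium 2. At an unadjusted p under 0.05 the edgeR count was 2. Of 15 costimulatory and checkpoint ligand genes, 11 rose and 1 fell. Cd40, the receptor for T-cell help, stood at 1861, 2227 and 1444 CPM in KO medium, against 8.89, 24.6 and 9.39 CPM in WT medium. Cd274, which encodes the checkpoint ligand PD-L1, stood at 1523, 1040.4 and 2639 CPM in KO medium, against 127, 80.9 and 101 CPM in WT medium. Cd40 and Cd274 had log2 folds of 4.07 to 7.01 (edgeR adjusted p-values up to 0.000222) and no overlap between the groups. Lgals9, a ligand of Tim-3, rose by 2.91 ± 0.32. Vsir, the checkpoint protein VISTA that restrains T cells, moved the other way, at 79.3, 44.9 and 59.9 CPM in KO medium, against 500.4, 232 and 459 CPM in WT medium (log2 fold -2.69 ± 0.60, edgeR adjusted p = 0.00664).

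**Figure D3:**
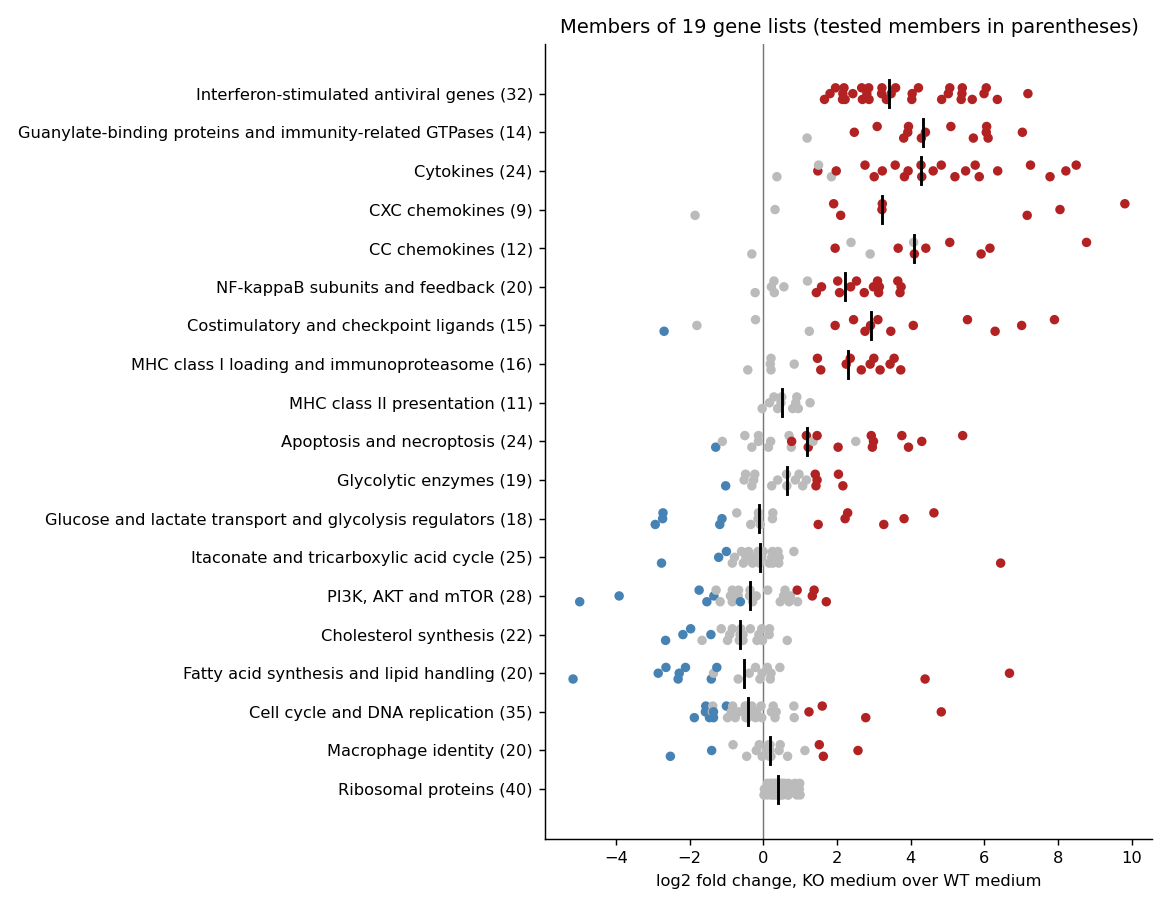
Log2 fold change of KO medium over WT medium (x axis) for every tested member of 19 gene lists (rows), with members called higher in red, called lower in blue and not called in grey, and the median of each list as a black bar. All 32 interferon-stimulated genes lie above 0, while no MHC class II or ribosomal protein gene was called.

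The study asked about glycolytic genes, and in medium 31.6% of them were called, close to the 26.3% over all genes tested. Of 19 glycolytic enzyme genes, 5 rose and 1 fell, with a median log2 fold of 0.64. With library totals in place of TMM factors, 2 rose and 5 fell. The 5 that rose were 3 hexokinases, which trap glucose in the cell, and the phosphofructokinase subunits Pfkl and Pfkp, of the committed step, while Eno3, an enolase, was called lower and lost that call on leaving out any library but KO medium 2 (edgeR adjusted p-values of 0.0537 to 0.109). Pfkp, with a log2 fold of 2.16 ± 0.46, is named to complete the 5 after its values were seen. Hk2 stood at 135, 95.5 and 181 CPM in KO medium, against 54.9, 40.9 and 54.0 CPM in WT medium (log2 fold 1.46 ± 0.30, edgeR adjusted p = 0.00477). Hk1 and Hk3 rose by 1.41 ± 0.29 and 2.04 ± 0.30 and Pfkl by 1.43 ± 0.27 in the same fit. Ldha, which turns pyruvate to lactate, stood at 2007, 1892 and 1231 CPM in KO medium, against 393, 1581 and 469 CPM in WT medium (log2 fold 1.07 ± 0.57, edgeR adjusted p = 0.189). Pkm, pyruvate kinase, stood at 3513, 3849 and 2642 CPM in KO medium, against 1563, 3026 and 1811 CPM in WT medium (log2 fold 0.64 ± 0.39, edgeR adjusted p = 0.248), and that fold was -0.16 with library totals. For both genes WT medium 2 was far above the other WT libraries and overlapped KO medium. The list held 8 rises without WT medium 2, and 0 falls without KO medium 1, KO medium 3, WT medium 1, WT medium 2 or WT medium 3. KO medium 3 alone against WT medium 1 and 3 gave 4 rises and 0 falls, and KO medium 1 and 2 against WT medium 2 alone gave 1 and 0.

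Regulators and transporters around the pathway moved in both directions. Of 18 tested, 6 rose and 5 fell (5 and 9 with library totals). Pfkfb3, which makes an allosteric activator of phosphofructokinase, stood at 1144, 579.7 and 1266 CPM in KO medium, against 80.4, 28.8 and 102 CPM in WT medium (log2 fold 3.82 ± 0.55, edgeR adjusted p = 0.000592). Slc2a1, the glucose transporter GLUT1, stood at 426, 298 and 312 CPM in KO medium, against 43.0, 111 and 68.5 CPM in WT medium (log2 fold 2.22 ± 0.52, edgeR adjusted p = 0.00903). Slc2a6, a transporter of lysosomal membranes, stood at 831, 1034 and 378 CPM in KO medium, against 24.3, 40.9 and 25.7 CPM in WT medium, and Slc16a1, a lactate carrier, at 156, 119 and 153 CPM in KO medium, against 9.16, 23.5 and 11.9 CPM in WT medium. Pdk3 and Pdk2, kinases that hold back pyruvate dehydrogenase, moved apart: Pdk3 stood at 46.6, 43.2 and 55.9 CPM in KO medium, against 8.78, 11.4 and 9.56 CPM in WT medium and Pdk2 at 1.10, 2.02 and 0.766 CPM in KO medium, against 10.2, 5.06 and 10.4 CPM in WT medium. Slc16a7, another monocarboxylate carrier, stood at 3.93, 3.93 and 3.92 CPM in KO medium, against 33.4, 14.4 and 29.8 CPM in WT medium. No WT medium library reached the lowest KO medium value for Slc2a6, Slc16a1 and Pdk3, and the log2 folds were 2.29 to 4.63 (edgeR adjusted p-values up to 0.00367). For Pdk2 and Slc16a7 every KO medium library lay below every WT medium library, with log2 folds of -2.73 ± 0.59 and -2.72 ± 0.56 (edgeR adjusted p = 0.00604 and 0.00475). The test called 2 falls without WT medium 1 and 3 without KO medium 1, KO medium 2, KO medium 3 or WT medium 3. Of 9 pentose phosphate genes, 1 rose and 2 fell (0 and 5 with library totals). When 1 library was left out, the list held 0 falls without KO medium 1, KO medium 2 or WT medium 1 and 1 without WT medium 3. Of 24 HIF factors and further HIF targets, 9 rose and none fell (4 and 5 with library totals). Hif1a was called (log2 fold 1.70 ± 0.50, edgeR adjusted p = 0.0265), and its call ended without KO medium 1 (0.0596), KO medium 3 (0.103) or WT medium 1 (0.073). Ak4 and P4ha1, targets of HIF-1, rose by 3.05 ± 0.36 and 1.68 ± 0.31. Fits with 1 library fewer called 5 rises without KO medium 1 or WT medium 1, and 1 fall without KO medium 3 or WT medium 2.

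A single gene rose in the list of itaconate and citric acid cycle genes. In that list 16.0% were called, against 26.3% of all genes tested. Acod1, which diverts cis-aconitate to itaconate, stood at 7075, 6321 and 8217 CPM in KO medium, against 92.6, 121 and 35.5 CPM in WT medium (log2 fold 6.44 ± 0.69, edgeR adjusted p = 0.000115). Of the 25 genes of the list 1 rose, Acod1, and 3 fell: Idh1, Idh2 and Aco1. Idh1, the cytosolic isocitrate dehydrogenase, stood at 37.0, 39.1 and 42.6 CPM in KO medium, against 301, 188 and 318 CPM in WT medium (log2 fold -2.76 ± 0.37, edgeR adjusted p = 0.00037). Idh2, its mitochondrial counterpart, stood at 18.3, 17.8 and 18.6 CPM in KO medium, against 31.5, 47.0 and 30.9 CPM in WT medium, and Aco1, the cytosolic aconitase, at 22.5, 26.3 and 17.2 CPM in KO medium, against 52.2, 51.2 and 49.6 CPM in WT medium. For Idh2 and Aco1 the log2 folds were -1.21 to -1.0 (edgeR adjusted p-values up to 0.0119), with KO medium lower throughout. With library totals 15 members of the list were called lower.

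**Figure D4:**
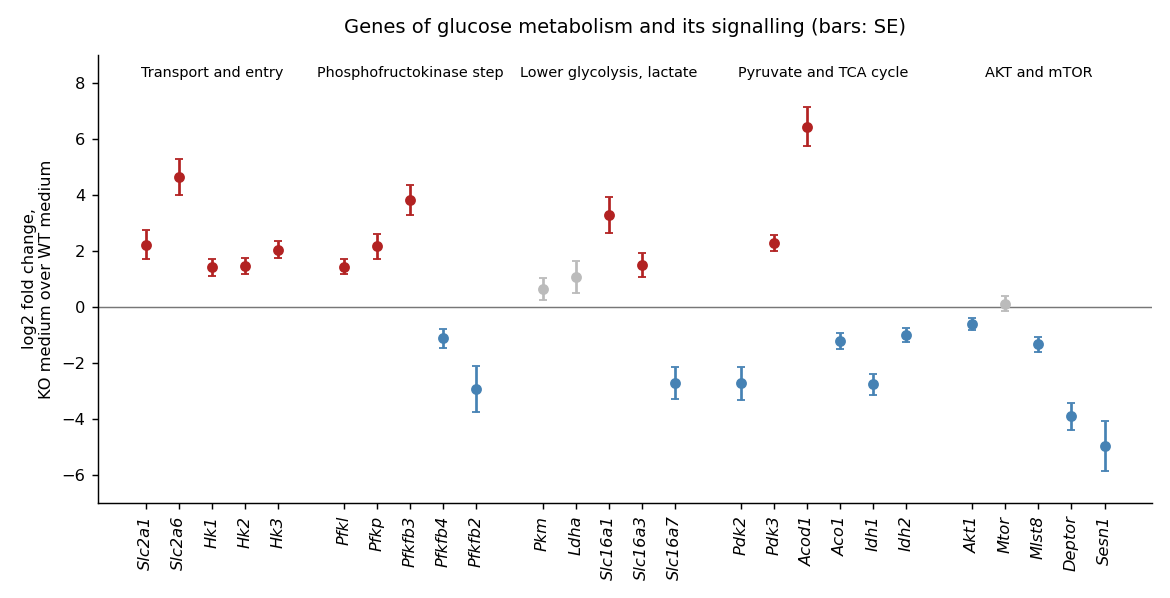
Log2 fold change of KO medium over WT medium (y axis) with its SE (bars) for genes of glucose transport, glycolysis, pyruvate use and AKT-mTOR signalling (x axis), called higher in red, lower in blue and not called in grey. Acod1 (log2 fold 6.44 ± 0.69) lies highest and Sesn1 (-4.98 ± 0.89) lowest.

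Genes that feed nitric oxide synthesis rose with Nos2. Of 14 genes of nitric oxide, arginine and polyamines, 6 rose and none fell (5 and 2 with library totals). Slc7a2, the arginine transporter of activated macrophages, stood at 1156, 1169 and 1015 CPM in KO medium, against 7.91, 38.1 and 7.18 CPM in WT medium. Gch1, which makes the cofactor tetrahydrobiopterin, stood at 368, 365 and 289 CPM in KO medium, against 20.8, 52.8 and 18.1 CPM in WT medium, and Ass1, which regenerates arginine, at 183, 149 and 263 CPM in KO medium, against 17.2, 36.2 and 8.64 CPM in WT medium. Every KO medium library lay above every WT medium library for Slc7a2, Gch1 and Ass1, with log2 folds of 3.27 to 5.98 and edgeR adjusted p-values of at most 0.002. Arg1, the arginase of alternatively activated cells, stood at 32.5, 23.2 and 138 CPM in KO medium, against 6.999, 29.0 and 28.5 CPM in WT medium (log2 fold 1.59 ± 1.36, edgeR adjusted p = 0.415), with overlapping groups and the highest value in KO medium 3.

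Signalling through PI3K, AKT and mTOR, which Nlrc3 is described to restrain, had 35.7% of its genes called, against 26.3% of all genes tested. Of 28 genes of PI3K, AKT and mTOR signalling, 4 rose and 6 fell. Among the rises were Pik3r5, Pik3cd and Pik3cg, which encode subunits of PI3K in leukocytes, with log2 folds of 1.33 ± 0.37, 1.38 ± 0.39 and 0.92 ± 0.29 (edgeR adjusted p = 0.0206, 0.0228 and 0.0367). Each of these calls ended on leaving out at least 2 of the 6 libraries in turn, with edgeR adjusted p-values of 0.0527 to 0.0539 for Pik3r5, 0.0546 to 0.0705 for Pik3cd and 0.0585 to 0.141 for Pik3cg. Deptor, an inhibitor within mTOR complexes, stood at 1.57, 0.706 and 0.937 CPM in KO medium, against 18.5, 9.15 and 21.5 CPM in WT medium (log2 fold -3.91 ± 0.49, edgeR adjusted p = 0.000248), and Mlst8, a subunit of both complexes, at 8.01, 6.45 and 6.30 CPM in KO medium, against 18.2, 15.4 and 18.9 CPM in WT medium (log2 fold -1.34 ± 0.28, edgeR adjusted p = 0.0047). Mtor itself stood at 33.3, 31.8 and 33.8 CPM in KO medium, against 35.2, 23.4 and 32.6 CPM in WT medium (log2 fold 0.12 ± 0.28, edgeR adjusted p = 0.789), a fold that was -0.74 with library totals. Akt1 was called lower (log2 fold -0.62 ± 0.21, edgeR adjusted p = 0.0485), a call that ended on leaving out any library but WT medium 2, with edgeR adjusted p-values of 0.068 to 0.142. Leaving out 1 library gave 1 rise without KO medium 2 or WT medium 3 and 2 without KO medium 1. With library totals 0 members of this list were called higher and 16 lower.

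Lipid genes leaned to falls. Of 20 genes of fatty acid synthesis and lipid handling, 8 fell and 2 rose, with a median log2 fold of -0.53. Fasn, the fatty acid synthase, stood at 6.83, 8.77 and 7.24 CPM in KO medium, against 37.9, 45.3 and 30.4 CPM in WT medium (log2 fold -2.31 ± 0.25, edgeR adjusted p = 0.000115). Pparg, a nuclear receptor of lipid storage, stood at 4.87, 7.36 and 7.92 CPM in KO medium, against 48.8, 38.5 and 38.4 CPM in WT medium, and Fads1, a fatty acid desaturase, at 12.2, 9.17 and 8.60 CPM in KO medium, against 77.8, 61.6 and 77.4 CPM in WT medium. Pparg and Fads1 had log2 folds of -2.85 to -2.64 (edgeR adjusted p-values up to 0.0014) and no overlap between the groups. The exceptions were Ch25h, which makes an antiviral oxysterol, at 189, 215 and 234 CPM in KO medium, against 0.340, 5.34 and 0.793 CPM in WT medium, and Acsl1, an acyl-CoA synthetase, at 564, 744 and 779.8 CPM in KO medium, against 39.3, 22.6 and 37.5 CPM in WT medium. No WT medium library reached the lowest KO medium value for Ch25h and Acsl1, and the log2 folds were 4.39 to 6.68 (edgeR adjusted p-values up to 0.00242).

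Sterol genes did not move as 1 block. Of cholesterol synthesis genes 18.2% were called and of efflux genes and LXR targets 23.1%, against 26.3% of all genes tested. Of 22 cholesterol synthesis genes 4 fell and none rose. Dhcr7, an enzyme of the last steps, stood at 5.03, 2.72 and 3.24 CPM in KO medium, against 24.9, 31.0 and 13.7 CPM in WT medium and Stard4, a sterol carrier, at 4.56, 4.94 and 4.94 CPM in KO medium, against 15.8, 34.1 and 15.7 CPM in WT medium. For Dhcr7 and Stard4 the log2 folds were -2.65 to -2.18 (edgeR adjusted p-values up to 0.00145), with KO medium lower throughout. With library totals 14 cholesterol genes were called lower, and 10 were with a term for the long-gene share or with one for sex. Without WT medium 2 the list had 1 gene called higher and 3 lower, and its median log2 fold was 0.23 in place of -0.62. A sterol response motif, TCACNCCAC on both strands, lay in a window of 1 of 15 cholesterol genes that had one. It was found for 1.31% of the genes tested that had a window and in 1.24% of all windows. Of 13 efflux genes and LXR targets, 1 rose and 2 fell (0 and 6 with library totals); Npc1, the lysosomal cholesterol exporter, stood at 66.9, 54.9 and 72.6 CPM in KO medium, against 261, 136 and 228 CPM in WT medium while its partner Npc2 stood at 3840.4, 3913 and 2823 CPM in KO medium, against 1262, 1947 and 1002 CPM in WT medium. Their log2 folds were -1.68 ± 0.42 and 1.33 ± 0.30 (edgeR adjusted p = 0.0125 and 0.00762). The list held 1 fall without KO medium 1, KO medium 2, KO medium 3, WT medium 1 or WT medium 3. In prostaglandin and leukotriene synthesis, which makes lipid mediators of inflammation, 3 of 15 rose and 3 fell (2 and 7 with library totals). Ptges, the prostaglandin E synthase, stood at 614, 592 and 515 CPM in KO medium, against 5.03, 9.08 and 7.85 CPM in WT medium, and Hpgds, the synthase of prostaglandin D, at 55.9, 44.3 and 72.7 CPM in KO medium, against 217, 107 and 196 CPM in WT medium. Ptges had a log2 fold of 6.29 ± 0.56 (edgeR adjusted p = 4.19e-05) and Hpgds one of -1.59 ± 0.38 (0.00994). The test called 1 fall without KO medium 1, KO medium 2, WT medium 1 or WT medium 3.

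Genes of macrophage identity were called about as often as all genes, at 25% against 26.3%. Of 20 macrophage identity genes, 3 rose and 2 fell (2 and 6 with library totals). Cebpa, a transcription factor of the myeloid lineage, stood at 23.5, 22.6 and 12.4 CPM in KO medium, against 111, 138 and 87.7 CPM in WT medium (log2 fold -2.52 ± 0.35, edgeR adjusted p = 0.000505). Fcgr1, the high-affinity IgG receptor, stood at 2177, 1991 and 1927 CPM in KO medium, against 313, 412 and 299 CPM in WT medium (log2 fold 2.57 ± 0.31, edgeR adjusted p = 0.000208). Spi1, which encodes the factor PU.1, rose by 1.63 ± 0.29. When 1 library was left out, the list held 1 fall without KO medium 2, KO medium 3, WT medium 1 or WT medium 3. Lyz2 was called lower (log2 fold -1.40 ± 0.43, edgeR adjusted p = 0.0315), and the call ended on leaving out any library but KO medium 1, with adjusted p-values of 0.0507 to 0.0849 (edgeR).

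Receptors for antibodies, sugars and cytokines rose more often than they fell. Of 16 Fc receptor and C-type lectin genes 6 rose and 2 fell (4 and 3 with library totals). Clec4e, the Mincle receptor for mycobacterial glycolipid, stood at 2189, 2479.6 and 2376 CPM in KO medium, against 98.0, 93.4 and 107 CPM in WT medium, and Fcgr2b, the inhibitory IgG receptor, at 1821, 1415 and 1580.0 CPM in KO medium, against 207, 122 and 203 CPM in WT medium. Every KO medium library lay above every WT medium library for Clec4e and Fcgr2b, with log2 folds of 3.18 to 4.56 and edgeR adjusted p-values of at most 0.00107. Fits with 1 library fewer called 1 fall without KO medium 1, KO medium 2 or WT medium 1. In alternative activation 4 of 16 rose and none fell, among them Il4ra, the receptor for interleukin 4, at 2212, 1505 and 1270.4 CPM in KO medium, against 116, 126 and 149 CPM in WT medium (log2 fold 3.67 ± 0.34, edgeR adjusted p = 5.03e-05). Leaving out 1 library gave 7 rises without WT medium 2, and 1 fall without KO medium 3 and 3 without WT medium 2.

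Adhesion, complement, scavenger and lysosomal genes gave smaller counts. In that order 32.0%, 37.5%, 31.2% and 15.4% were called, against 26.3% of all genes tested. Of 25 integrin, adhesion and matrix genes 8 rose and none fell (7 and 4 with library totals). Sdc4, a cell-surface proteoglycan, stood at 2719, 2699.8 and 2112 CPM in KO medium, against 73.1, 62.1 and 93.3 CPM in WT medium, and Icam1, the ligand of leukocyte integrins, at 605, 676 and 722 CPM in KO medium, against 103, 46.8 and 86.8 CPM in WT medium. An antisense transcript covers 11.7% of the Icam1 exon bases. Genes on the opposite strand cover more of some other named genes, among them Mlst8 (22.5%), Csf1r (15.1%), Nfkbib (14.5%) and Cd274 (14.1%). Sdc4 and Icam1 had log2 folds of 3.08 to 5.04 (edgeR adjusted p-values up to 0.000498) and no overlap between the groups. Of 16 complement genes, 5 rose and 1 fell (2 and 4 with library totals). C1ra, a protease of the first component, stood at 71.0, 50.01 and 43.8 CPM in KO medium, against 8.55, 4.64 and 6.64 CPM in WT medium (log2 fold 3.05 ± 0.37, edgeR adjusted p = 0.000202). The list held 2 rises without KO medium 1, KO medium 2, WT medium 1 or WT medium 3 and 3 without KO medium 3, and 0 falls without KO medium 1 and 2 without WT medium 2. Of 16 scavenger receptors 3 rose and 2 fell (3 and 5 with library totals). Olr1, a receptor of oxidised lipoprotein, stood at 31.1, 45.2 and 67.1 CPM in KO medium, against 0.719, 4.23 and 1.46 CPM in WT medium (log2 fold 4.52 ± 0.86, edgeR adjusted p = 0.00302). The test called 1 fall without KO medium 1, KO medium 2, KO medium 3, WT medium 1 or WT medium 3 and 4 without WT medium 2. Of 26 lysosomal genes, 2 rose and 2 fell (1 and 14 with library totals), with Ctsc, the activator of granule proteases, at 1920.3, 1430.5 and 3085 CPM in KO medium, against 386, 213 and 435 CPM in WT medium (log2 fold 2.64 ± 0.41, edgeR adjusted p = 0.00098). When 1 library was left out, the list held 1 rise without KO medium 1, KO medium 2, WT medium 1 or WT medium 3, and 1 fall without KO medium 3 or WT medium 1.

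Genes of cell death and purine signalling rose more often than they fell, and for redox balance the direction depended on scaling. Of 24 genes of apoptosis and necroptosis, 12 rose and 1 fell. Mlkl, the executor of necroptosis, stood at 381, 316 and 394 CPM in KO medium, against 17.4, 34.6 and 19.4 CPM in WT medium, and Cflar, which holds back caspase activation, at 773, 678 and 1094 CPM in KO medium, against 129, 69.9 and 129 CPM in WT medium. No WT medium library reached the lowest KO medium value for Mlkl and Cflar, and the log2 folds were 2.96 to 3.94 (edgeR adjusted p-values up to 0.000128). Fits with 1 library fewer called 0 falls without KO medium 1, KO medium 2, KO medium 3 or WT medium 1. Of 26 NRF2 targets and iron genes, 9 rose and 3 fell (5 and 6 with library totals). Sod2, the mitochondrial superoxide dismutase, stood at 2859, 3553 and 2529 CPM in KO medium, against 111, 231 and 130.2 CPM in WT medium (log2 fold 4.24 ± 0.50, edgeR adjusted p = 0.000195). Gclc, the rate-limiting enzyme of glutathione synthesis, stood at 8.56, 7.46 and 16.2 CPM in KO medium, against 70.5, 39.9 and 154 CPM in WT medium (log2 fold -3.04 ± 0.49, edgeR adjusted p = 0.00123). Leaving out 1 library gave 1 fall without KO medium 1, KO medium 2, WT medium 1 or WT medium 3. Of 15 purinergic genes 6 rose and none fell (5 and 3 with library totals). Slc28a2, a nucleoside transporter, stood at 2197, 1675 and 2024 CPM in KO medium, against 21.5, 22.6 and 15.6 CPM in WT medium and Adora2a, an adenosine receptor, at 109, 109 and 88.0 CPM in KO medium, against 2.76, 2.29 and 2.25 CPM in WT medium. For Slc28a2 and Adora2a the log2 folds were 5.39 to 6.63 (edgeR adjusted p-values up to 0.00056), with KO medium higher throughout. The list held 2 falls without WT medium 2.

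No ribosomal or mitochondrially encoded gene was called with TMM factors. Among 40 ribosomal protein genes and 11 mitochondrially encoded genes, neither edgeR nor DESeq2 made a call, and 0 and 0 had an unadjusted edgeR p under 0.05. Of 26 nuclear-encoded respiratory chain genes 1 rose, the electron carrier Cycs, at 319, 299.7 and 213 CPM in KO medium, against 29.2, 98.6 and 28.3 CPM in WT medium (log2 fold 2.42 ± 0.56, edgeR adjusted p = 0.00885). With library totals 2 mitochondrially encoded and 3 nuclear-encoded genes were called lower. Without WT medium 2 the counts of rises were 7 ribosomal, 1 mitochondrially encoded and 12 nuclear-encoded genes.

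Cell cycle genes were called at 31.4%, against 26.3% of all genes: of 35 tested, 4 rose and 7 fell (2 and 14 with library totals). Ccnd2, a D-type cyclin, stood at 159.9, 180.1 and 166 CPM in KO medium, against 6.92, 4.09 and 6.76 CPM in WT medium, and Cdkn1a, the inhibitor p21, at 633, 619 and 827 CPM in KO medium, against 77.5, 127 and 97.0 CPM in WT medium. Mcm2, a subunit of the replicative helicase, stood at 4.71, 3.93 and 6.56 CPM in KO medium, against 16.9, 25.1 and 13.9 CPM in WT medium (log2 fold -1.87 ± 0.42, edgeR adjusted p = 0.00689). Every KO medium library lay above every WT medium library for Ccnd2 and Cdkn1a, with log2 folds of 2.78 to 4.83 and edgeR adjusted p-values of at most 0.000334. The test called 4 falls without KO medium 1. With KO medium 3 alone against WT medium 1 and 3 no cell cycle gene was called lower, and with KO medium 1 and 2 against WT medium 2 alone 7 were. In the ATF4 response 4 of 19 rose and 3 fell (2 and 6 with library totals), with Nupr1, a stress-induced nuclear protein, at 774, 528 and 431 CPM in KO medium, against 26.4, 22.3 and 32.1 CPM in WT medium (log2 fold 4.42 ± 0.47), and in the unfolded protein response 1 of 17 rose and 3 fell (0 and 11 with library totals). Calls made up 36.8% of the ATF4 list and 23.5% of the unfolded protein response list, against 26.3% of all genes tested. Eif2ak3, which encodes the sensor PERK and belongs to the latter, stood at 4.16, 2.62 and 4.68 CPM in KO medium. In WT medium it stood at 29.9, 13.7 and 29.6 CPM (log2 fold -2.67 ± 0.57, edgeR adjusted p = 0.00529). When 1 library was left out, the list held 0 rises without KO medium 1, KO medium 2, KO medium 3, WT medium 1 or WT medium 3 and 2 without WT medium 2, and 1 fall without KO medium 2, WT medium 1 or WT medium 3 and 6 without WT medium 2.

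Markers of other cell types were read from lists of their own. Summed levels of neutrophil markers were 2781 to 4845 CPM in KO medium and 717 to 990.2 CPM in WT medium, mostly from S100a8, S100a9, Ngp and Lcn2. Of 13 tested 3 were called higher (23.1%, against 26.3% of all genes): Lcn2, at 1166, 724 and 856 CPM in KO medium, against 40.8, 74.1 and 58.6 CPM in WT medium, with Camp and S100a8. Other members were not called and leaned in both directions. S100a9 leaned higher, at 581, 791 and 1608 CPM in KO medium, against 245, 375 and 337 CPM in WT medium. Ngp was far higher in KO medium 3 than elsewhere, at 151, 208 and 1094 CPM in KO medium, against 131, 100 and 187 CPM in WT medium. Mmp8 stood at 54.4, 34.1 and 35.9 CPM in KO medium, against 50.5, 85.0 and 77.5 CPM in WT medium. Retnlg leaned lower in KO medium too, at 0.393, 0.202 and 0.937 CPM, against 0.719, 2.91 and 3.17 CPM in WT medium. Ly6g was at most 0.403 CPM in both groups. The calls of Camp and S100a8 ended without WT medium 1 (edgeR adjusted p = 0.0968 and 0.0713) or WT medium 3 (0.0799 and 0.0615), and that of Camp also without KO medium 2 (0.0606) or KO medium 3 (0.0771). Activated macrophages express Lcn2 as well. Bst2 and Ccr7 were called among 7 dendritic cell markers and are also induced by interferon or LPS in macrophages; Bst2 made up most of a summed level of 710.4 to 1249 CPM in KO medium and 142 to 247 CPM in WT medium. B cell markers summed to 71.0 to 159.8 CPM in KO medium and 77.9 to 116 CPM in WT medium and stromal markers to 98.8 to 294 and 78.0 to 139 CPM, with KO medium 3 the highest in both. No B cell, mast cell, erythroid or megakaryocyte marker was called, Lck was the T-cell marker that was, and Pdgfrb the stromal one. The T-cell genes Cd3e, Cd3d and Cd3g stood at 1.63 CPM or less in every library of both groups. Fewer cells of a type and less RNA per cell cannot be told apart in such bulk samples, and the part of these cells in the results was not tested.

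KO medium was finally set against WT LPS, which asks where the libraries labelled KO and unstimulated differed from WT cells that had received LPS. No gene was called (0.0% of 13773) by edgeR, where the smallest adjusted p was 0.95, and none by DESeq2; 269 genes had an unadjusted edgeR p under 0.05, which is 1.95% of those tested, and 392 did by DESeq2. The median size of a log2 fold was 0.32, against 0.75 in KO medium against WT medium. Nos2 stood at 3858, 1633 and 2965 CPM in KO medium and 2815, 818 and 3303 CPM in WT LPS, a log2 fold of 0.29 ± 0.66 with a 95% interval of -1.01 to 1.58. Ccl5 stood at 8679, 10644 and 4790.0 CPM in KO medium and 6595, 5125 and 7442 CPM in WT LPS (interval -0.48 to 1.14). Idh1 stood at 37.0, 39.1 and 42.6 CPM in KO medium and 42.8, 67.5 and 24.3 CPM in WT LPS (interval -0.86 to 0.50). Il6 stood at 154, 149 and 299 CPM in KO medium and 321, 12.1 and 262 CPM in WT LPS, with WT LPS 2 far below libraries 1 and 3. WT LPS 2 alone of its group had Xist above 1 CPM (437 CPM before scaling). It also had the group's highest long-gene share, 48.8%, and the part of either was not tested. The interval for Il6 was -1.67 to 1.71. Such intervals allow sizeable differences in either direction, so the absence of calls does not show that the groups were alike. KO medium and WT LPS overlapped for 91.2% of the genes called between KO medium and WT medium and for 94.5% of all genes tested.

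Side by side, the comparison of WT LPS with WT medium shares its WT medium libraries with that of KO medium, so only each comparison's own values are given. It called 2526 genes, 18.3% of those tested (11.9% higher and 6.46% lower in WT LPS), where KO medium against WT medium called 26.3%. Nos2 had a log2 fold of 9.27 ± 0.95 in KO medium and 8.98 ± 0.93 in WT LPS, each over WT medium. For Gbp2 the log2 folds of KO medium and WT LPS were 6.05 ± 0.46 and 5.74 ± 0.45, for Acod1 6.44 ± 0.69 and 6.07 ± 0.68, for Pfkfb3 3.82 ± 0.55 and 4.02 ± 0.55, and for Nlrc3 -2.83 ± 0.56 and -1.89 ± 0.53. Across genes, the rank correlation between libraries ran from 0.876 to 0.99 between KO medium and WT LPS (9 pairs) and from 0.796 to 0.884 between KO medium and WT medium (9 pairs). The labelled genotype and the activated state of these libraries therefore cannot be told apart in this comparison.

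**Figure D5:**
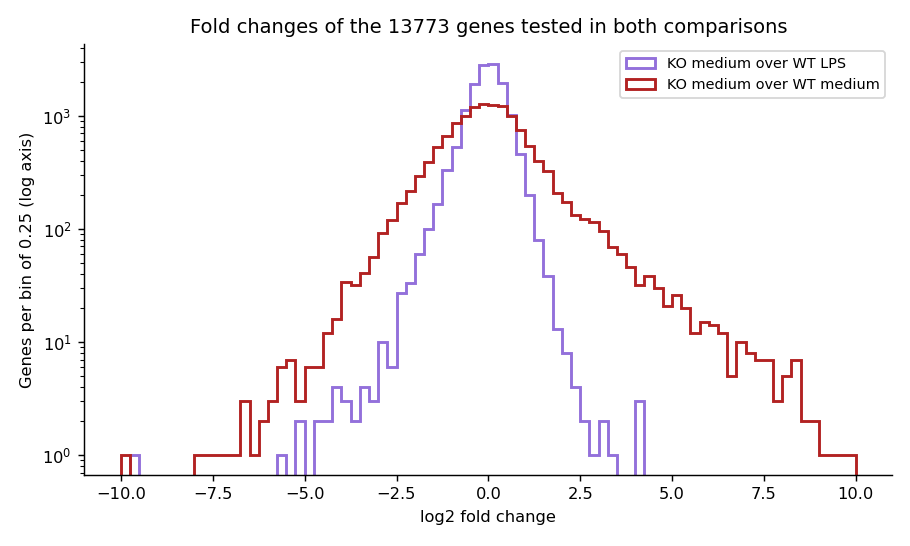
Number of genes per bin of log2 fold change (x axis, bins of 0.25; y axis on a log scale) for KO medium over WT LPS and for KO medium over WT medium. The median size of a fold is 0.32 in the first and 0.75 in the second, whose rising tail passes 9.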

How the data were processed

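RNA of 12 macrophage libraries was sequenced, 3 in each of 4 groups, and all 12 entered the fits so that they share 1 estimate of spread. The authors deposited read counts per Ensembl gene (raw) and FPKM values (counts per kilobase of gene and per sequencing depth). The build was mm10 of the mouse, per the submitters' processing notes. Aligner, counter and strand setting are not given in the sources used. The labels' protocols name both an Illumina TruSeq and a KAPA Stranded kit. Gene names and types came from GENCODE on the same build, for 54409 of 54446 gene IDs.

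Of 54446 genes, 13773 passed edgeR's filter on low counts. Counts were fitted with edgeR 4.0.16 (R 4.3.3; TMM factors, quasi-likelihood test, 1 mean per group), p-values were adjusted over all genes tested (Benjamini-Hochberg) with calls at an adjusted p below 0.05. No batch term was used. Levels are CPM over TMM-scaled library sizes. A count of 3, the limit a count of 0 allows, equals 0.236 to 0.302 CPM in KO medium and 0.113 to 0.208 CPM in WT medium, for counting error only. On simulated counts for KO medium against WT medium (13773 genes, 50 changed per size) the fit called 8% of genes changed by a log2 fold of 1. It called 52% at 2, 96% at 3 and 98% at 5, and 7 of 13573 unchanged genes. Only genes with a mean of at least 50 counts were changed, and sex and long-gene share were not simulated. Far fewer genes were changed there than were called in the data, which makes the adjusted p stricter. The shares therefore do not carry over to the data.

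Alternatives were library totals, upper-quartile factors, DESeq2 1.42.0, no filter, the 6 libraries alone, a replicate block, a sex term, each library left out, and limma 3.58.1 on log2(FPKM + 1) and log2(FPKM + 0.1). A term for the share of counts in long genes and subsets of libraries by that share or by Xist were chosen after seeing the data. No 2 of the 12 libraries agreed within sampling noise (chi-square of at least 24.3 per degree of freedom over all pairs). The members and the 53 gene lists were chosen with earlier results of these data known. Genes were named by a rule: Nlrc3, a fixed set of 23 genes, the 15 largest called rises and falls at 5 CPM or more without overlap between groups, and up to 4 rising and 4 falling members of each list by smallest p. The rule also allowed 8 genes a direction against WT LPS, and none was eligible. Some genes that the rule names are not reported here.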

Additional observations from a re-analysis of the deposited data

Results flagged for a closer look

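The difference between libraries labelled KO and WT was not the same in the 2 culture conditions by a test of the difference itself. For Nlrc3, the log2 fold of KO over WT in medium minus that under LPS was -4.59 ± 0.77 (SE, edgeR adjusted p = 0.000589): levels were 1.41, 1.21 and 1.11 CPM in KO medium, against 7.30, 12.3 and 7.10 CPM in WT medium, and 12.9, 6.68 and 4.91 CPM in KO LPS, against 1.04, 4.32 and 1.71 CPM in WT LPS. KO was thus lower in all 3 libraries in medium and higher in all 3 under LPS. Sex, as read from Xist, differed within both LPS groups. Xist was at 0.063, 191 and 95.1 CPM before scaling in KO LPS, against 0.066, 437 and 0.122 CPM in WT LPS. By the same edgeR contrast 5657 of the 13773 genes tested differed between the conditions, among them 3491 of the 3620 called in medium. The difference in medium is itself a part of this contrast, so the overlap is no separate support for those calls. The median of this contrast, which includes the folds in medium, was 8.50 over cytokine genes and 6.65 over interferon-stimulated genes, against -0.11 over all genes. Nos2 had 4.51, 1.14 and 0.560 CPM in KO LPS, against 2815, 818 and 3303 CPM in WT LPS. Across genes KO LPS libraries correlated (Spearman) at 0.854 to 0.985 with WT medium and at 0.792 to 0.879 with WT LPS. The contrast is therefore one of libraries as labelled, and whether labels of groups are exchanged was not tested.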

How the results depend on the processing

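The 3620 calls between KO medium and WT medium (1932 higher, 1688 lower) moved with scaling and with the libraries taken. With library totals, which shift the median log2 fold of all genes to -0.85, 6643 genes were called, 1070 higher and 5573 lower. Limma on the deposited FPKM, which are scaled by library totals too, called 6271 (1074 higher, 5197 lower) with a pseudocount of 1 and 6435 (1096 higher, 5339 lower) with 0.1. Upper-quartile factors gave a median of -0.25 and 38.4% of calls higher, against 53.4% with TMM, and DESeq2 gave -0.05 and 49.9%. Leaving out 1 library at a time gave 2221 to 4697 calls (1330 to 2423 higher, 869 to 2274 lower), lowest without WT medium 1 and highest without WT medium 2. The high-share libraries alone gave 1615 (1226 higher, 389 lower), the low-share libraries 975 (682 higher, 293 lower) and those without Xist 1433 (934 higher, 499 lower), each with 1 library in 1 group (KO medium 3, then WT medium 2 for both others) that is assumed to vary like the rest. No filter, the 6 libraries alone, the sex term and the term for the long-gene share kept these counts within 1.5 times. Nlrc3 kept its sign throughout and its call except in the high-share libraries (-2.69, edgeR adjusted p = 0.086). Against WT LPS the unfiltered fit called 3 genes and the other settings run called 0. A replicate block gave 3164 calls. The numbers were not taken as pairs: deviations of same-numbered libraries correlated at -0.077, 0.552 and 0.567, and KO medium 1 correlated best with WT medium 2 (0.165).

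Of 159 called genes named in the text, none changed sign under any setting and 146 kept their call on leaving out any library. Most of them were chosen for a small p or a large fold in these same data, so their stability does not speak for the other calls. Over all genes the edgeR calls fell from 3620 to 2221 without WT medium 1. Calls ended for 12 with library totals, 30 within the high-share and 58 within the low-share libraries. The uncalled genes turned as follows. Mtor was at -0.74 with library totals, -0.11 with upper-quartile factors, -0.01 with no filter, -0.10 without WT medium 2 (-0.10 to 0.23 over the libraries left out in turn), -0.00 in the high-share libraries, and -0.53 and -0.67 on FPKM with pseudocounts of 1 and 0.1. Pkm was at -0.16 with library totals and -0.14 on FPKM with either pseudocount. Adgre1 was at 0.77 with the sex term, 0.65 with the long-gene term, 0.52 in the low-share libraries and 0.85 in those without Xist. Arg1 was at -0.06 in the low-share libraries. The cause was not tested. With 3 libraries a group, changes near a log2 fold of 1 were seldom called on simulated counts. Far fewer genes were changed there than were called in the data, so that share does not carry over. A missing call still says little for genes of small change.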
